A study of Mus musculus with 18 samples.

Results

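The genes described here are 10 members of the NF-kB pathway. Nfkb1, Nfkb2, Rela and Relb encode transcription factor subunits, and Nfkbia, Nfkbib and Nfkbie encode inhibitors. Nfkbiz encodes a nuclear relative of the inhibitors, Tnfaip3 a feedback enzyme and Ikbkb a kinase. These 10 genes were taken as the probes whose only gene symbol in the array's platform annotation was one of these names. Of the 10 genes, 9 had a probe, with 13 probes in all, and 8 passed the filter on low values and were tested among 10958 genes. Nfkb1 had no probe under its symbol and was not analysed here.

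The cells were 3T3-L1 adipocytes, a mouse preadipocyte line that turns into fat cells in culture, differentiated for 7 days and then given one agent for 24 hours. One group received the vehicle DMSO. The other 5 groups received rosiglitazone at 100 nM, GQ16 or indomethacin at 10 µM, sodium diclofenac at 25 µM, or ibuprofen at 75 µM. Each group had 3 samples on 3 Illumina arrays, 18 in all. Rosiglitazone is an antidiabetic agonist of PPARγ, a nuclear receptor and master regulator of fat cell genes; diclofenac, indomethacin and ibuprofen are non-steroidal anti-inflammatory drugs; GQ16 is a PPARγ ligand known by its code name. GQ16 and indomethacin were given at the same concentration; between any other 2 agents, a difference cannot be told apart from a difference in concentration. Whether a group's samples were separate cultures is not stated in the labels. A p-value here therefore reflects only how far these samples spread, which could be technical.

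NF-kB factors are dimers of Rel-family subunits that are held in the cytoplasm by IkB proteins. Signals from TNF, interleukin 1 or Toll-like receptors activate the IKK kinase complex, which marks IkB for destruction and lets the dimers enter the nucleus. Among the genes they then switch on are Nfkbia and Tnfaip3, whose products turn the pathway off again, so the transcript levels of these genes are often read as a record of pathway activity. In fat cells the pathway is known for the inflammatory state of obesity, and PPARγ ligands are known to restrain some NF-kB target genes. Transcript levels do not report the phosphorylation, degradation or nuclear entry of these proteins, which were not measured here.

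The promoters of the 3 members that passed a test below are shown because NF-kB acts on its feedback genes through kB sites near their start. Each stretch is RefSeq sequence of build GRCm38.p6, read 5′ to 3′ on the gene's strand, with 250 bases before the annotated start and 50 after it. Capitals mark every match, on either strand, to the loose kB pattern GGGNNNNNCC, and overlapping matches are merged. The Nfkbia stretch is chr12:55492598-55492897 on the minus strand, the Nfkbib stretch is chr7:28766595-28766894 on the minus strand, and the Tnfaip3 stretch is chr10:19015361-19015660 on the minus strand.
Nfkbia: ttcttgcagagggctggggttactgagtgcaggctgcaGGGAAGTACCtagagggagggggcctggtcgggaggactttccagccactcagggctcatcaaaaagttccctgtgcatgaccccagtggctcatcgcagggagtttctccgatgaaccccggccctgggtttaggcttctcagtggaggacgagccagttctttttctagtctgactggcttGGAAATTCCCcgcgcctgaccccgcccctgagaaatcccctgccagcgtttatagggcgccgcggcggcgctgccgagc
Nfkbib: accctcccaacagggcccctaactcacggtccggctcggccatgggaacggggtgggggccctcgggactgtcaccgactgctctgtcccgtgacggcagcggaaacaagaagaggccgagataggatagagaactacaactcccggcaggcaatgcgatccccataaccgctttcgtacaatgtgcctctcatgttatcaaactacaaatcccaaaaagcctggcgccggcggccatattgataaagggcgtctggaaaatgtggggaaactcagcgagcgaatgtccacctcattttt
Tnfaip3: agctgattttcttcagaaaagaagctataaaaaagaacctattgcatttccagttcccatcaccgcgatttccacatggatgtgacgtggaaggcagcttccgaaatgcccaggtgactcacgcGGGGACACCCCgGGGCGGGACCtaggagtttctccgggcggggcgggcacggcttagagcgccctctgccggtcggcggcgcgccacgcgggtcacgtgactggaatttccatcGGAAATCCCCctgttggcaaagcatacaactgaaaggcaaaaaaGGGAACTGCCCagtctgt
The Nfkbia promoter held 2 matches, and 1 of them, at bases -29 to -20 on the opposite strand, also matched a stricter pattern (GGGA, any base, TTTCC). The Tnfaip3 stretch held 6 overlapping or separate matches to the loose pattern and 0 to the stricter one, the stretch at another annotated Tnfaip3 start, not shown, held 2 and 0, and the Nfkbib promoter held 0 of either. Across all 32851 promoter stretches of the same length, 50.8% held a loose match, so a loose match is common, whereas 0.411% held a stricter one. The PPAR response element AGGTCANAGGTCA was found in 0 of these 3 stretches and in 0.0396% of all stretches. A match describes letters only and shows no binding. RefSeq promoters were matched for 6 of the 10 members.

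The values are log2 intensities as the authors deposited them, with the same distribution on every array (median 5.98, highest 14.8). A probe counted as above background where it exceeded 6.18, the 95th percentile of 1526 probes for olfactory and related receptors, and 42.1% of the 45281 probes did so on each array. The arrays lay on 3 slides, here numbered 1 to 3: all 3 ibuprofen arrays were on slide 2 with DMSO replicate 3, and the other 2 DMSO arrays were on slide 1. Rosiglitazone replicate 1 stood farthest from its group, with a root mean square deviation of 0.286 over all genes. DMSO replicate 3, at 0.207, stood farther from its group than the other DMSO arrays, at 0.120 and 0.136, and the remaining arrays of all groups reached 0.0923 to 0.229. All 10 adipocyte markers were above background on all 18 arrays. Of the 8 macrophage markers with a probe, 7 were above background on no array, the exception being Csf1r, and 0 of the 2 lymphocyte markers with a probe were above it. Of 4 endothelial markers, Kdr was above background on all 18 arrays, Tek on 15, and Pecam1 and Cdh5 on 1 each. The mean of 8 preadipocyte or fibroblast markers was 9.38 to 9.78 in DMSO, 8.90 to 9.07 in rosiglitazone, 9.19 to 9.34 in diclofenac, 9.01 to 9.03 in indomethacin, 9.03 to 9.08 in ibuprofen and 9.26 to 9.59 in GQ16, and the part of these cells in the results below was not tested.

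Few of these genes changed. Tnfaip3 was lower with ibuprofen than with DMSO, Nfkbib was higher with rosiglitazone and Nfkbia was lower with rosiglitazone, each by less than 1.5-fold. Of these, only the Nfkbib difference also passed in limma's test with slide as a fixed block (adjusted p 0.033). There the adjusted p was 0.146 for Tnfaip3 and 0.0591 for Nfkbia. In the F test among the 6 groups (limma, Benjamini-Hochberg adjusted over all genes, threshold 0.05), 1 of 8 members passed, against 18.5% of all genes tested. That member was Tnfaip3, with an adjusted p of 0.0053. With slide as a fixed block, 0 members passed the F test. Against DMSO, 1 member rose and 1 fell with rosiglitazone, where 18.1% of all genes passed, 8.06% higher and 10% lower. With ibuprofen 1 member fell, where 9.46% of all genes passed and 5.2% were lower. Diclofenac, indomethacin and GQ16 changed 0 of 8 in limma's test, where 2.1%, 10.2% and 1.43% of all genes passed. With 8 genes tested, the counts of 0 to 2 at the adjusted threshold lie near these shares of all genes. At an unadjusted p under 0.05 the counts for diclofenac, indomethacin and GQ16 were 0, 2 and 1. The share of all genes at that unadjusted threshold is not given here, so these 3 counts are not read as a result. The 5 comparisons share the same DMSO arrays and are not independent of each other.

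**Figure D1:**
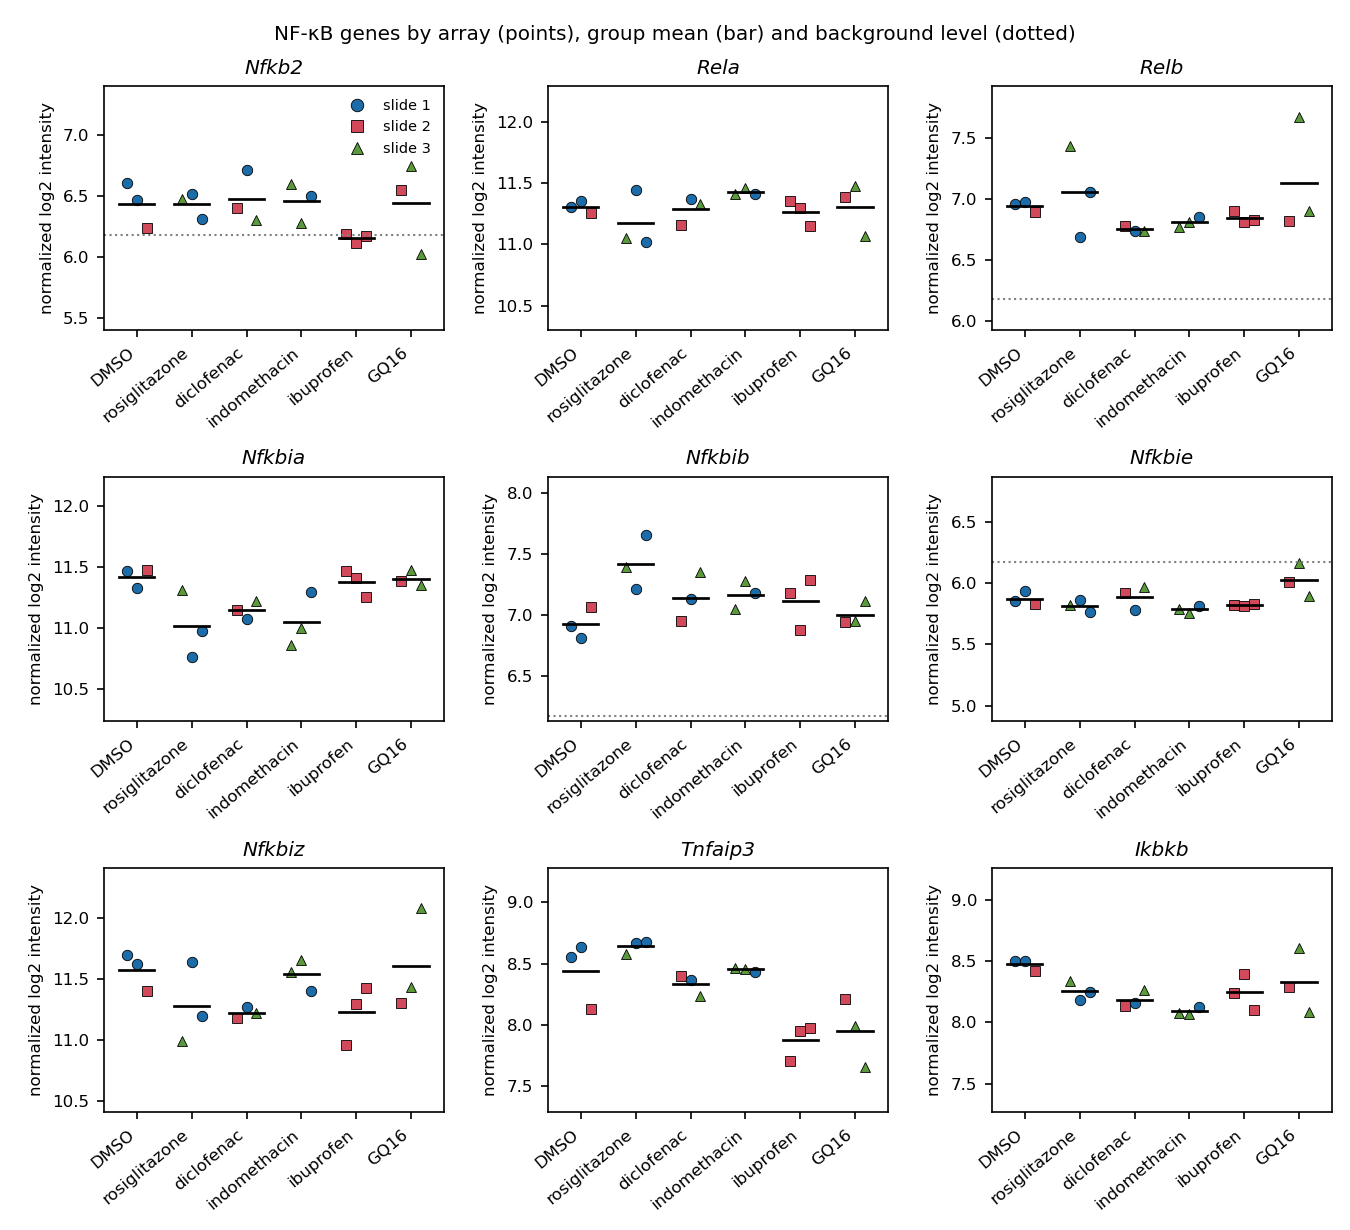
Deposited log2 intensity of the 9 members with a probe, 1 panel per gene, in the 6 groups on the horizontal axis. Each point is 1 array coloured by slide, the bar is the group mean and the dotted line is the background level of 6.18. Nfkbie lay below the background line on every array, and Tnfaip3 was lowest in the ibuprofen and GQ16 groups.

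Of the factor subunits, Rela, the main activating subunit of the canonical pathway, passed in no comparison with DMSO. Its log2 intensities were 11.31, 11.36 and 11.26 with DMSO, 11.06, 11.44 and 11.02 with rosiglitazone, 11.16, 11.38 and 11.33 with diclofenac, 11.39, 11.48 and 11.07 with GQ16, 11.42, 11.46 and 11.41 with indomethacin and 11.36, 11.30 and 11.15 with ibuprofen. The indomethacin arrays were the only group wholly above the DMSO arrays, by 0.12 on the log2 scale, and the other groups overlapped DMSO. No difference of Rela from DMSO passed (log2 differences -0.13 to 0.12, SE 0.14, limma adjusted p 0.527 to 0.996).

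Relb, a subunit of the non-canonical pathway that is itself induced by NF-kB, was above background on all 18 arrays. The Relb arrays read 6.96, 6.97 and 6.89 with DMSO, 7.43, 6.69 and 7.06 with rosiglitazone, 6.78, 6.74 and 6.74 with diclofenac, 6.82, 7.67 and 6.90 with GQ16, 6.77, 6.81 and 6.85 with indomethacin and 6.90, 6.81 and 6.82 with ibuprofen. Single arrays stood high, GQ16 replicate 2 at 7.67 and rosiglitazone replicate 1 at 7.43. No difference of Relb from DMSO passed (log2 differences -0.19 to 0.19, SE 0.17, limma adjusted p 0.619 to 0.785).

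Nfkb2, the precursor subunit whose processing defines the non-canonical pathway, was near background. It exceeded that level on 15 of 18 arrays, and on 1 of 3 with ibuprofen. On the log2 scale it read 6.61, 6.47 and 6.24 with DMSO, 6.48, 6.51 and 6.31 with rosiglitazone, 6.40, 6.71 and 6.31 with diclofenac, 6.55, 6.75 and 6.02 with GQ16, 6.60, 6.28 and 6.50 with indomethacin and 6.19, 6.12 and 6.17 with ibuprofen. The ibuprofen arrays lay below all DMSO arrays, but the difference of -0.28 (95% interval -0.57 to 0.02) did not pass, with a limma adjusted p of 0.241.

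Among the inhibitors, Nfkbia encodes IkBα, an inhibitor that NF-kB quickly resynthesises. Its brighter probe had log2 intensities of 11.47, 11.33 and 11.47 with DMSO, 11.31, 10.76 and 10.98 with rosiglitazone and 10.86, 11.00 and 11.30 with indomethacin. All rosiglitazone and indomethacin arrays lay below all DMSO arrays. The values were 11.15, 11.07 and 11.22 with diclofenac, 11.47, 11.41 and 11.26 with ibuprofen and 11.38, 11.48 and 11.36 with GQ16, so the diclofenac arrays were also below DMSO and the last 2 groups overlapped it.
Nfkbia fell 1.32-fold with rosiglitazone, a log2 difference of -0.40 (95% interval -0.70 to -0.11) with a limma adjusted p of 0.0488. The indomethacin difference of -0.37 (-0.66 to -0.08) had an adjusted p of 0.104 and the diclofenac difference of -0.28 one of 0.398. The differences with ibuprofen and GQ16 were -0.04 and -0.02.
The rosiglitazone call was near the threshold. With slide as a fixed block the adjusted p was 0.0591 at a difference of -0.41, with slide as a random block it was 0.0439, and within slide 1 the difference was -0.52. The call was lost without any 1 of the 3 DMSO arrays or without rosiglitazone replicate 2 or 3, and the adjusted p ranged from 0.0076 to 0.179 over single arrays left out. Without rosiglitazone replicate 1 and DMSO replicate 3 the difference was -0.52 (adjusted p 0.0154).
A dimmer probe for Nfkbia correlated with the brighter one at 0.40 over the 18 arrays. In a fit over all 17674 probes, its difference with rosiglitazone was -0.27 ± 0.16 (SE, adjusted p 0.230), in the same direction, and the brighter probe's adjusted p was 0.0526, so neither probe passed in that fit. The 2 probes parted most with ibuprofen, where the differences were -0.24 and -0.04.

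Nfkbib encodes IkBβ, an inhibitor that is not resynthesised as quickly. The Nfkbib arrays read 6.91, 6.81 and 7.06 with DMSO and 7.39, 7.21 and 7.65 with rosiglitazone. They were 6.95, 7.13 and 7.35 with diclofenac, 6.94, 6.95 and 7.12 with GQ16, 7.05, 7.28 and 7.18 with indomethacin and 7.19, 6.88 and 7.29 with ibuprofen. All rosiglitazone arrays were above all DMSO and GQ16 arrays, and the other 4 agents each overlapped DMSO.
Nfkbib rose 1.41-fold with rosiglitazone, a log2 difference of 0.49 (95% interval 0.20 to 0.78) with a limma adjusted p of 0.0169. It was also 1.34-fold lower with GQ16 than with rosiglitazone, a difference of -0.42 (-0.71 to -0.13, adjusted p 0.047). The other agents differed from DMSO by 0.07 to 0.24 and none passed.
With slide as a fixed block the rosiglitazone difference was 0.46 (adjusted p 0.033), and within slide 1 it was 0.57. The call was lost when rosiglitazone replicate 3, DMSO replicate 1 or DMSO replicate 2 was left out, with differences of 0.37 to 0.60 over single arrays left out. The comparison of GQ16 with rosiglitazone had an adjusted p of 0.0552 with the fixed slide block and 0.0432 with the random one, a difference of -0.36 within slide 3, and did not hold when any GQ16 array or rosiglitazone replicate 1 or 3 was left out.

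Nfkbiz encodes IkBζ, an atypical IkB that in the nucleus promotes some NF-kB target genes. Log2 intensities of Nfkbiz were 11.70, 11.62 and 11.40 with DMSO, 10.99, 11.63 and 11.20 with rosiglitazone, 11.18, 11.27 and 11.22 with diclofenac, 11.30, 11.43 and 12.08 with GQ16, 11.55, 11.66 and 11.40 with indomethacin and 10.96, 11.29 and 11.43 with ibuprofen. The diclofenac arrays lay below all DMSO arrays, and the rosiglitazone and ibuprofen arrays overlapped DMSO. Differences from DMSO were -0.30, -0.35, -0.04, -0.35 and 0.03 in the order rosiglitazone, diclofenac, indomethacin, ibuprofen and GQ16 (SE 0.18), and none passed in limma's test.

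Nfkbie, which encodes IkBε, was above background on 0 of 18 arrays and was not tested. One of its 2 probes read 5.76 to 6.17 and the other 5.71 to 5.78.

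**Figure D2:**
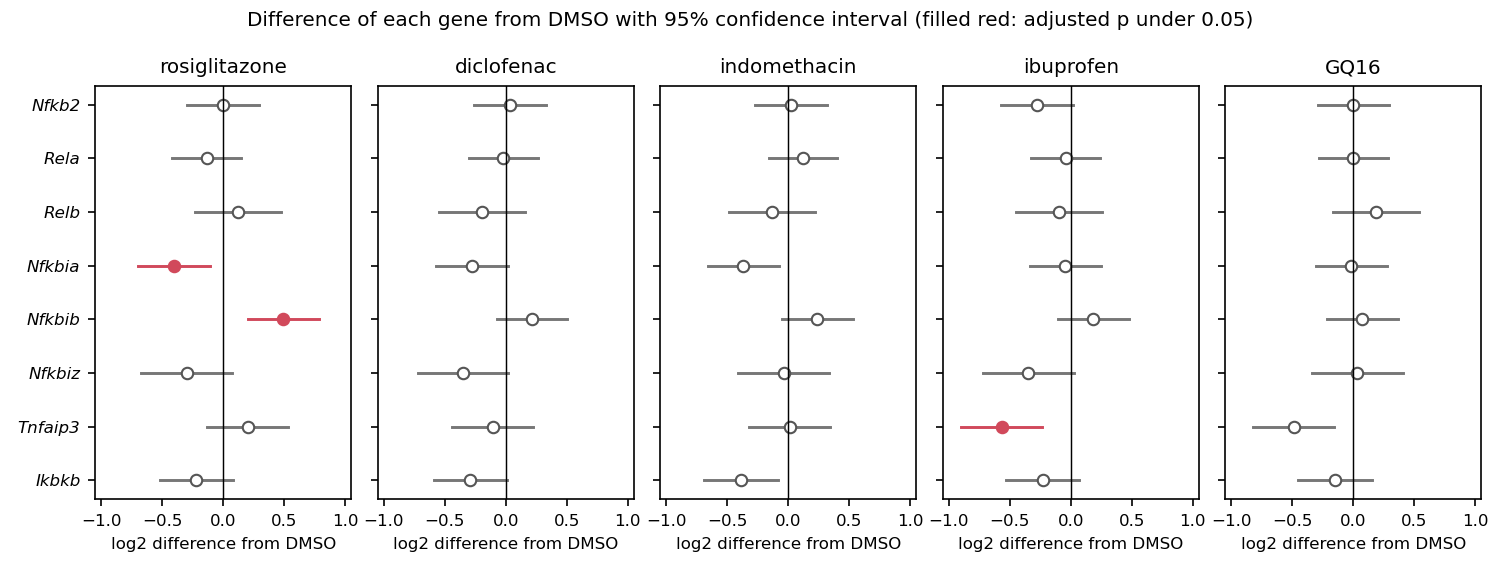
Log2 difference from DMSO (horizontal axis) of the 8 tested members for each of the 5 agents, with 95% intervals from the limma fit. Points in red passed at an adjusted p under 0.05: Nfkbia and Nfkbib with rosiglitazone and Tnfaip3 with ibuprofen.

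Tnfaip3 encodes a ubiquitin-editing enzyme that is induced by NF-kB and turns its signalling off. Tnfaip3 read 8.55, 8.64 and 8.13 with DMSO, 8.58, 8.67 and 8.67 with rosiglitazone, 8.40, 8.37 and 8.23 with diclofenac, 8.21, 7.99 and 7.65 with GQ16, 8.47, 8.46 and 8.43 with indomethacin and 7.70, 7.95 and 7.98 with ibuprofen. All ibuprofen arrays lay below every array of DMSO, rosiglitazone, diclofenac and indomethacin, and the GQ16 arrays lay below every rosiglitazone, diclofenac and indomethacin array. DMSO replicate 3, at 8.13, was the lowest DMSO array and lay below GQ16 replicate 1.
Tnfaip3 fell 1.48-fold with ibuprofen against DMSO, a log2 difference of -0.56 (95% interval -0.89 to -0.23) with a limma adjusted p of 0.0281. The GQ16 difference of -0.49 (-0.82 to -0.16) had an adjusted p of 0.115 and is not a call. Rosiglitazone, diclofenac and indomethacin differed from DMSO by 0.20, -0.11 and 0.01.
The ibuprofen call did not hold with slide as a fixed block (-0.51, adjusted p 0.146) and held with slide as a random block (-0.55, adjusted p 0.0399). Within slide 2, where 1 DMSO array stood beside all 3 ibuprofen arrays, it was -0.25. Slide and agent are largely confounded in this comparison. It was also lost without DMSO replicate 1 or 2 or ibuprofen replicate 1 or 2, and without DMSO replicate 3 the difference was -0.72 (adjusted p 0.0055). In bulk samples like these, fewer cells of a type and less RNA per cell cannot be told apart.
Against rosiglitazone, with different concentrations, 1 of 8 members passed with ibuprofen, where 1.34% of all genes did (0.712% lower), and 2 with GQ16, where 14.8% did (6.04% lower). Each of these was lower than with rosiglitazone. Tnfaip3 was 1.70-fold lower with ibuprofen than with rosiglitazone (log2 difference -0.76, 95% interval -1.10 to -0.43, adjusted p 0.0147) and 1.61-fold lower with GQ16 (-0.69, -1.02 to -0.36, adjusted p 0.00571). With the fixed slide block these were -0.74 (adjusted p 0.171; the groups share no slide) and -0.60 (0.0206), with the random block -0.76 (0.0274) and -0.66 (0.00718), and within slide 3 the GQ16 difference was -0.76. The GQ16 call against rosiglitazone held whichever single array was left out but not in a fit of these 2 groups alone (adjusted p 0.106), whereas the ibuprofen call was lost without ibuprofen replicate 1 or 2. Tnfaip3 was also 1.41-fold lower with GQ16 than with indomethacin (-0.50, adjusted p 0.0433), where 11.7% of all genes passed. That call was lost with the fixed slide block (adjusted p 0.0612) and held with the random one (0.0405). Diclofenac and indomethacin changed 0 of 8 members against rosiglitazone in limma's test at an adjusted p under 0.05, where 1.94% and 0.0365% of all genes passed. At an unadjusted p under 0.05 the count was also 0 for each, and the share of all genes at that threshold is not given here.

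Ikbkb encodes IKKβ, the kinase that phosphorylates IkB in the canonical pathway. For Ikbkb the arrays read 8.50, 8.51 and 8.42 with DMSO, 8.34, 8.18 and 8.25 with rosiglitazone, 8.14, 8.16 and 8.26 with diclofenac, 8.29, 8.61 and 8.08 with GQ16, 8.07, 8.07 and 8.13 with indomethacin and 8.24, 8.40 and 8.10 with ibuprofen. All DMSO arrays were above all rosiglitazone, diclofenac, indomethacin and ibuprofen arrays. The indomethacin difference, -0.39 (95% interval -0.69 to -0.08), was the largest and had a limma adjusted p of 0.0981; with the slide block it was -0.43 (0.10), and within slide 1 it was -0.38. The other differences were -0.29 to -0.15 and none passed. The remaining 2 Ikbkb probes were above background on 0 arrays.

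Ranked from highest to lowest mean, the Tnfaip3 groups ran rosiglitazone, indomethacin, DMSO, diclofenac, GQ16 and ibuprofen, with 0.76 between the ends. The Nfkbia groups ran DMSO, GQ16, ibuprofen, diclofenac, indomethacin and rosiglitazone, with 0.40 between the ends, and the Nfkbib groups rosiglitazone, indomethacin, diclofenac, ibuprofen, GQ16 and DMSO, with 0.49. For the other 5 members the ends lay 0.26 to 0.39 apart. Of 40 pairs of neighbours in these orders over the 8 members, 0 passed in limma's test. Neighbours lie closest by construction, so this count carries little information. Of all 120 pairs of groups 7 passed, each with groups that did not overlap. All 7 are given above. The shares of all genes that passed in single pairs of groups were 0.0365% to 18.1%, and the share with groups that did not overlap is not given here. The count of 7 is therefore not read as a result about the members. In the 5 pairs of groups not yet named, 0 members passed; the shares of all genes were 0.183% for indomethacin against diclofenac, 0.867% for ibuprofen against diclofenac, 0.0365% for GQ16 against diclofenac, 0.265% for ibuprofen against indomethacin and 6.39% for GQ16 against ibuprofen.
The median difference of the 8 members from DMSO was -0.07 with rosiglitazone, -0.15 with diclofenac, -0.01 with indomethacin, -0.16 with ibuprofen and 0.00189 with GQ16, while the medians of all genes lay between -0.00351 and 0.00922. The median size of the members' differences was 0.21, 0.20, 0.13, 0.21 and 0.05, against 0.20, 0.12, 0.16, 0.16 and 0.14 over all genes.

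By correlation over the 18 arrays, as a description, the genes most like Tnfaip3 were Metap2 (0.88), Psmd14 (0.88) and Kpna1 (0.87), and those most like Nfkbia were Pusl1 (0.91), Camk1 (0.91) and Slc46a3 (0.90). Those most like Nfkbib were Sulf1 (0.87), Olfr538 (0.86) and Mbd3l2 (0.85). Olfr538 is an olfactory receptor and one of the genes that set the background level. Its mean was 6.66 with DMSO and 7.07 with rosiglitazone, beside 6.93 and 7.42 for Nfkbib. The means of Sulf1 were 6.18 and 6.52, and those of Mbd3l2 were 6.61 and 6.94. A rise with rosiglitazone like that of Nfkbib was thus also seen at a probe used for background, and its cause was not tested. The arrays share slides, so these correlations hold more than the treatments. Among the members, Relb and Ikbkb correlated at 0.61, Nfkbia and Ikbkb also at 0.61, and Nfkbia and Tnfaip3 at -0.57. Within groups these 3 correlations were 0.71, 0.45 and -0.26.

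The surrounding pathway was described with 4 lists that hold none of the members. The counts below stand beside 18.1%, 2.1%, 10.2%, 9.46% and 1.43% of all genes that passed against DMSO with rosiglitazone, diclofenac, indomethacin, ibuprofen and GQ16. The list of the IKK complex and upstream kinases, with partner proteins that are not kinases, had 11 of 12 genes measured. Of these, 1 rose with rosiglitazone and 2 with ibuprofen, and 0 passed with the other 3 agents. Map3k7, the TAK1 kinase that activates IKK, rose with rosiglitazone by 0.51 (adjusted p 0.0267), though its arrays overlapped DMSO. It rose with ibuprofen by 0.53 (0.0361), and its partner Tab2 rose with ibuprofen by 0.56 (0.0221). DMSO replicate 3, the only DMSO array on the slide of the ibuprofen arrays, was the highest DMSO array for both genes. Map3k7 read 7.71 on it, against 7.85, 7.98 and 7.83 with ibuprofen. Tab2 read 11.72 on it, against 11.94, 12.28 and 11.95 with ibuprofen. Slide and agent are largely confounded in these 2 rises. Ikbke, an IKK-related kinase that passed the F test, differed from DMSO in no test; it was 0.45 higher with GQ16 than with rosiglitazone (0.0169).
Of 20 measured receptors and adaptors of 26 listed, 1 fell with rosiglitazone and 0 changed with the other agents. That was Traf2, an adaptor of TNF receptors, at -0.61 (adjusted p 0.00947). Its rosiglitazone arrays read 6.06, 6.94 and 6.88, replicate 1 being below background, and without that replicate the difference was -0.33 (adjusted p 0.0658).
Another list, of other subunits, IkB-like proteins, brakes and ubiquitin ligases, had 26 of 32 genes measured. The subunit Rel was not measured, and not every gene of the list is a brake. With rosiglitazone 1 rose and 2 fell, with diclofenac 2 fell, and with indomethacin 2 rose and 3 fell. With ibuprofen 1 rose and 2 fell, and with GQ16 1 fell. Birc2, a ubiquitin ligase of TNF receptor complexes, fell with all 5 agents (log2 differences -0.88 to -0.56, adjusted p 0.0103 to 0.0465). Without DMSO replicate 2, no Birc2 difference passed (-0.82 to -0.51, adjusted p 0.05004 to 0.157). Btrc, the ligase subunit that recognises phosphorylated IkB, fell with rosiglitazone (-0.72, adjusted p 0.00105), diclofenac (-0.64), indomethacin (-0.51) and ibuprofen (-0.52); the GQ16 difference was -0.35 (adjusted p 0.209). Its log2 intensities were 10.57, 10.49 and 10.29 with DMSO and 9.57, 9.80 and 9.83 with rosiglitazone, and the groups did not overlap. With indomethacin, the ubiquitin ligase gene Itch rose by 0.59 (0.0319) and Tnip1, which encodes a partner protein of Tnfaip3's product, fell by 0.58 (0.019). Itch, Tnip1, Btrc and Birc2 were among the 5 genes of this list that passed with indomethacin. At most 2 genes of the list passed with indomethacin once any 1 DMSO or indomethacin array was left out.

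Of 41 listed NF-kB target genes, 37 had a probe and 23 were measured. With rosiglitazone 3 rose and 9 fell, with diclofenac 2 fell, with indomethacin 2 rose and 7 fell, with ibuprofen 2 rose and 5 fell, and with GQ16 1 fell. In the same order 12, 2, 9, 7 and 1 of 23 passed, against 18.1%, 2.1%, 10.2%, 9.46% and 1.43% of all genes. The list was chosen with earlier results of these data known. These counts beside the shares are therefore a description and no independent test of NF-kB targets. The median difference of the 23 from DMSO was -0.20, -0.02, -0.10, -0.13 and 0.00447 in the order rosiglitazone, diclofenac, indomethacin, ibuprofen and GQ16. The 3 other lists had medians of -0.10 to 0.03 with all 5 agents.
Vcam1, an adhesion molecule, had log2 intensities of 10.53, 10.46 and 10.52 with DMSO, against a mean of 8.89 ± 0.14 (SD, n = 3) with rosiglitazone. It fell with all 5 agents: the log2 differences were -1.62 for rosiglitazone, -1.09 for diclofenac, -1.29 for indomethacin, -0.93 for ibuprofen and -0.77 for GQ16, and all 5 passed in limma's test (adjusted p 7.15e-08 to 0.0141). Without DMSO replicate 2 the GQ16 difference of Vcam1 was -0.79 (adjusted p 0.0634), and without DMSO replicate 1 it was -0.76 (0.0732). Il15, a cytokine, read 7.75, 7.84 and 8.14 with DMSO and 6.75, 6.80 and 6.94 with rosiglitazone, and the groups did not overlap. It fell with rosiglitazone (-1.08), diclofenac (-0.74), indomethacin (-0.88) and ibuprofen (-0.62); the GQ16 difference was -0.55 (adjusted p 0.0567). Lcn2, an iron-binding acute-phase protein, fell with rosiglitazone (-0.81), indomethacin (-0.48) and ibuprofen (-0.34), while its difference was -0.33 with diclofenac (0.089) and 0.00 with GQ16.
Cxcl1, a neutrophil chemokine, moved the other way. It read 7.95, 8.07 and 8.44 with DMSO and 10.69, 10.03 and 10.05 with rosiglitazone, with no overlap, and rose by 2.11 (adjusted p 3.00e-08). It rose by 1.45 with indomethacin and 0.96 with ibuprofen, and its difference was 0.65 with diclofenac (0.0715) and 0.23 with GQ16 (0.572).
Over single arrays left out, the targets that passed numbered 9 to 12, 2 to 3, 6 to 8, 3 to 8 and 0 to 1 for the 5 agents in the same order. The genes that passed in the list with the brakes numbered 2 to 5, 0 to 2, 0 to 2, 0 to 4 and 0 to 2. Those of the kinase list numbered 0 to 1 with rosiglitazone and 0 to 2 with ibuprofen, and the receptors and adaptors 0 to 5 with rosiglitazone. The shares of all genes that passed in these fits are not given here. These ranges are therefore not read as results about the lists. Of the 30 calls against DMSO among these named pathway genes, 24 held with slide as a fixed block, 29 with slide as a random block and 14 whichever single array was left out. The calls of Cxcl1 held in every such fit.

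**Figure D3:**
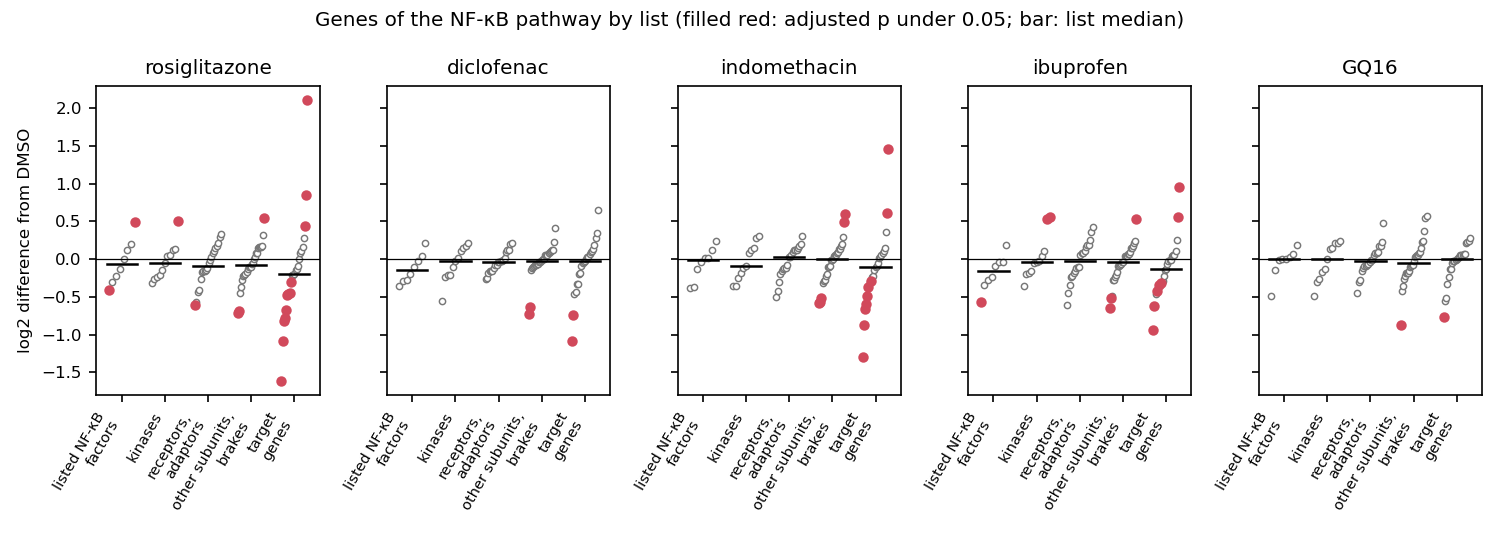
Log2 difference from DMSO (vertical axis) of the tested members, in the leftmost column of each panel, and of the measured genes of the 4 pathway lists. Each panel is 1 of the 5 agents. Each point is 1 gene, red where it passed at an adjusted p under 0.05, and the bar is the list's median; in the target list the points reach lowest with rosiglitazone.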

How the data were processed

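Labelled RNA from 18 samples was hybridised to Illumina mouse arrays. The deposited log2 values were made by the authors; the submitters' processing notes name GenomeStudio and lumi, without a version, order or setting. All arrays had the same distribution of values, so changes that shift most transcripts one way are hidden, and dim probes are compressed towards the floor. The raw-signal table was left aside, since 36 of its columns matched no sample by name. The planned background correction (neqc) and detection filter, which needed that table, were therefore not run.

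A probe was kept where it exceeded 6.18 on at least 3 arrays, and the brightest probe stood for a gene. All 10958 genes were fitted in limma 3.58.1 (R 4.3.3, trend, 1 mean per group, 18 arrays, 12 residual degrees of freedom), with two-sided moderated tests, an F test and Benjamini-Hochberg adjustment over all genes. The fit was tested on simulated data. All members were named; of each pathway list, up to 4 genes passing the F test with the lowest p; and for the 3 members with the lowest F p, the 3 best-correlated genes. The members and lists were chosen with earlier results of these data known. The promoters are RefSeq sequences and the arrays' number limits the precision. Alternatives are given in the closing section.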

Additional observations from a re-analysis of the deposited data

How the results depend on the processing

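No log2 difference of a member reversed direction where it was called: of 1465 single-gene values under alternatives, 1398 stayed on the same side of the threshold, 43 calls were lost and 24 gained, and 71 uncalled values changed sign. Of 66 uncalled log2 differences, 54 were called under no alternative. The members passing were 1 in the F test and 2, 0, 0, 1 and 0 for rosiglitazone, diclofenac, indomethacin, ibuprofen and GQ16 against DMSO, and 0, 0, 1 and 2 for diclofenac, indomethacin, ibuprofen and GQ16 against rosiglitazone. With slide as a block they were 0 in the F test, 1 for rosiglitazone against DMSO, 0 for ibuprofen against DMSO, 0 for ibuprofen against rosiglitazone and 1 for GQ16 against rosiglitazone. With the replicate block, rosiglitazone against DMSO gave 1, and the adjusted p of Nfkbia was 0.0555. The replicate numbers do not pair the samples: the 45 same-numbered pairs correlated at -0.33 to 0.53 (median -0.0142), 10 over 0.1, and 7 of 18 arrays correlated best with their own number. With no filter the counts were 0 for rosiglitazone against DMSO, 0 for ibuprofen against DMSO and 1 for GQ16 against rosiglitazone. With arrays shifted to one median, rosiglitazone against DMSO gave 1. With only the 2 groups of a comparison fitted, rosiglitazone against DMSO gave 0, indomethacin against DMSO 1, ibuprofen against rosiglitazone 0 and GQ16 against rosiglitazone 0. With the mean over probes, and with no intensity trend, indomethacin against DMSO gave 1. Gene-by-gene array weights, an alternative chosen after seeing the data because the default method did not converge, gave 5 in the F test, 2, 3, 3 and 1 for diclofenac, indomethacin, ibuprofen and GQ16 against DMSO and 1 for diclofenac against rosiglitazone, with 5309 genes passing the F test in all against 2026. Without rosiglitazone replicate 1 and DMSO replicate 3 the counts were 2 in the F test, 1 for GQ16 against DMSO and 2 for ibuprofen against rosiglitazone. With single arrays left out the counts ranged over 1 to 2 in the F test, 0 to 2 for rosiglitazone against DMSO, 0 to 1 for ibuprofen against DMSO, 0 to 1 for ibuprofen against rosiglitazone and 1 to 2 for GQ16 against rosiglitazone. The causes were not tested. Apart from the F test with array weights, the numbers of all genes passing under these alternatives are not given here. The member counts under them are therefore not read as results about the members.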
